A study of Homo sapiens with 4 samples.

Results

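The 4 HOX clusters of the human genome were described in the prostate cancer cell line DU145, from 1 list of binding peaks of the DNA-binding protein CTCF and 1 list of peaks of histone H3 acetylated at lysine 27 (H3K27ac). Each cluster was taken as a body that holds its HOX genes and a flank of 200 kb on each side, in coordinates of the genome build hg19. The bodies were chr7:27130000-27250000 for HOXA, chr17:46600000-46810000 for HOXB, chr12:54330000-54450000 for HOXC and chr2:176950000-177060000 for HOXD. A peak was a member if its summit, the base of highest signal, lay in a body or a flank. The members were 125 of 86516 deposited peaks: 54 of 36152 CTCF peaks and 71 of 50364 H3K27ac peaks. Of the CTCF members 27 lay in bodies and 27 in flanks, and of the H3K27ac members 45 lay in bodies and 26 in flanks.

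The series, on chromatin contacts of RNA polymerase II in prostate cancer, is represented here by 4 libraries: DU145 CTCF, DU145 H3K27ac, DU145 input and LNCaP input. DU145 was derived from a brain metastasis and LNCaP from a lymph node metastasis, both are single established lines grown in serum-containing medium, and the labels name no treatment other than formaldehyde fixation. There is 1 library for each mark. Hence the values below carry no replicate error, no test was made, and peaks of 1 library are not replicates of one another. The cell line label was not checked against marker genes, since gene positions on hg19 were not used here.

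HOX genes encode homeodomain transcription factors that give cells their position along the body axis in the embryo, and many adult epithelia keep expressing a subset of them. Within a cluster the genes stand in a row in the order in which they act from head to tail, and the low-numbered genes act toward the head. Active promoters and enhancers carry H3K27ac on their nucleosomes, while silent HOX genes are usually covered by the Polycomb mark on the same lysine, which cannot be acetylated and methylated at once. CTCF is a zinc finger protein that holds the ends of chromatin loops, and its sites inside HOX clusters are known for separating active from Polycomb-covered genes. HOXB13, the last gene of its cluster, is a transcription factor of the prostate lineage and a partner of the androgen receptor.

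In RefSeq (build GRCh38.p14) the clusters hold 39 HOX genes: 11 in HOXA, 10 in HOXB, 9 in HOXC and 9 in HOXD. Read from low to high coordinate, HOXA ends with HOXA13 and HOXB runs from HOXB1 to HOXB13. HOXC runs the other way, from HOXC13 to HOXC4, and HOXD from HOXD13 to HOXD1. The same order was assumed for hg19. Peaks were placed by position in a body and assigned to no gene, except that HOXB13 was placed at chr17:46802000-46806000, as the choice of regions gave it.

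The clusters also encode microRNAs between their HOX genes, and RefSeq lists 8 such genes in the 4 clusters. Of these the miR-196 family is shown because HOXA, HOXB and HOXC each carry a copy of it. No peak was tied to these genes. MIR196A1 in HOXB and MIR196A2 in HOXC encode the same mature miR-196a-5p, and MIR196B in HOXA encodes miR-196b-5p. The seed, bases 2 to 8 from the 5′ end, is in capitals and is the same in both. They differ by A12C, counted from the 5′ end of miR-196a-5p.
hsa-miR-196a-5p: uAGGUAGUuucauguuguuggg
hsa-miR-196b-5p: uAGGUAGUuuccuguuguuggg

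CTCF recognises a long motif, so the RefSeq promoter windows of the clusters (250 bases before to 50 bases after a gene start, GRCh38.p14) were searched on both strands for a short form of it: CC, 3 bases of any kind, AGG, 1 base of any kind and GGC. This spelling was chosen after others had been tried. It was present in 6 of 51 windows of the clusters, and in 1631 of 35116 windows of the genome (4.64%). HOXA had it in 2 of 20 windows, HOXD in 4 of 16, HOXB in 0 of 12 and HOXC in 0 of 3. Windows of opposite genes overlap, and the 6 windows held 4 distinct places, shown with 10 bases on each side and the motif in capitals. That of HOXA11, a gene of limb and genital tract patterning, was at chr7:27185398-27185429 on the minus strand, in a window shared with HOXA11-AS. That of HOXD10 was at chr2:176116670-176116701 on the plus strand. The long non-coding RNA gene HAGLR had one at chr2:176178081-176178112, shared with HAGLROS, and one at chr2:176189049-176189080, both printed on the minus strand, with the second motif on the opposite strand. They are printed because they are CTCF-like letters beside named genes of the clusters. Because the build differs from that of the peaks, no match was tied to a peak, and a match is not a binding site.
HOXA11 motif: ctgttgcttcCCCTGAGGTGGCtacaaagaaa
HOXD10 motif: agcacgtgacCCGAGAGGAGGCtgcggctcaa
HAGLR first motif: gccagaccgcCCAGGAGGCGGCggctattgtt
HAGLR second motif: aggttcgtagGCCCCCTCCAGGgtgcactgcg

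The values used below are each peak's position, its fold enrichment over local background as the authors deposited it, and the number of fragments at its summit, solved from the deposited fold and p-value. CTCF summits had a median of 77 fragments in the cluster bodies and 45 in the list. H3K27ac summits had 23 in both. Local background at the summits, relative to the lowest in the list, had a median of 1.37 for CTCF in the bodies and in the whole list. For H3K27ac it was 1.06 in the bodies and 1.22 in the list. Fold enrichment is compared only within 1 list, and intervals cover counting error only.

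Both marks were dense in the cluster bodies. CTCF had 27 peaks in 560 kb of bodies, or 48.2 per Mb, against 16.9 per Mb in the 1600 kb of flanks and 11.9 per Mb over the 24 assembled chromosomes. H3K27ac had 80.4 peaks per Mb in the bodies, 16.3 in the flanks and 16.5 over the chromosomes. Peaks of H3K27ac covered 7.64% of the bases of the bodies, 1.03% of the flanks and 1.42% of the chromosomes. For H3K27ac the flanks together had about the density of the list, but the high flank of HOXB alone held 11 of the 26 flank peaks. For CTCF the flanks lay above the list, and the high flank of HOXC, with 40 per Mb, lay above the HOXC body.

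The 4 bodies stood in a different order for the 2 marks. HOXA had 17 H3K27ac peaks over 14.7% of its 120 kb, HOXC had 15 over 11.3% of 120 kb, HOXB had 10 over 4.60% of 210 kb, and HOXD had 3 over 1.83% of 110 kb. HOXD, with the least H3K27ac, had the most CTCF peaks for its length, 7 or 63.6 per Mb. This place was lost among CTCF peaks above the list's median fold, of which HOXD had 4 in 110 kb and HOXA 6 in 120 kb. CTCF numbered 6 in HOXA (50 per Mb), 10 in HOXB (47.6 per Mb) and 4 in HOXC (33.3 per Mb). The median local background at H3K27ac summits was 1.11 times the lowest in HOXA, 1.08 in HOXB, 1.02 in HOXC and 1.22 in HOXD. It is known only at called summits, 3 of them in HOXD, and its part in these differences was not tested.

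**Figure D1:**
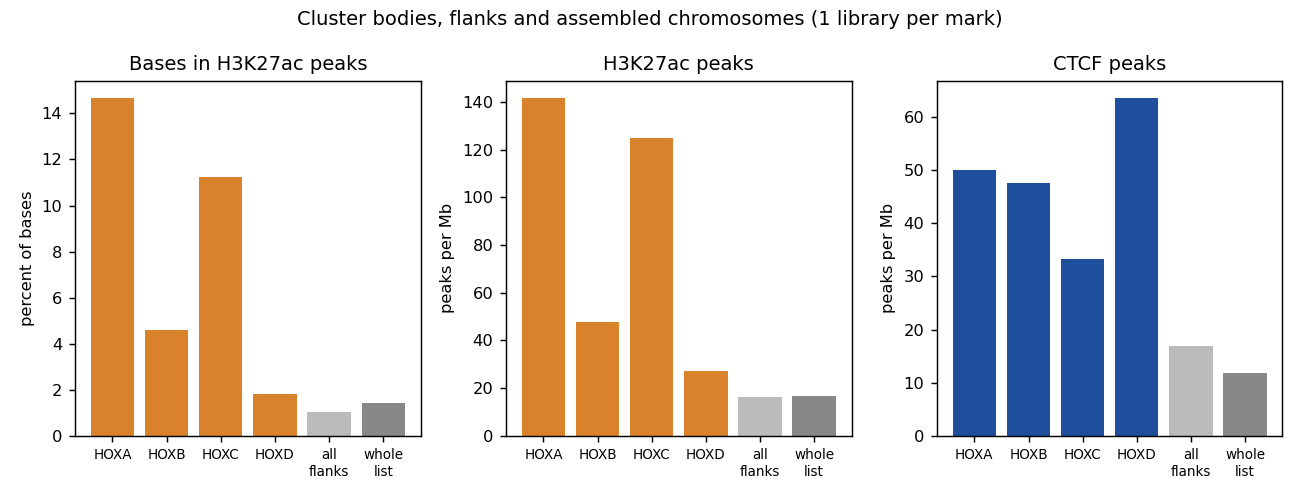
Bars give the percent of bases in H3K27ac peaks, H3K27ac peaks per Mb and CTCF peaks per Mb for each cluster body, for all flanks together and for the assembled chromosomes, from 1 library per mark. HOXA and HOXC stand highest for H3K27ac (14.7% and 11.3% of bases), and HOXD stands highest for CTCF (63.6 per Mb) and lowest of the bodies for H3K27ac (1.83%).

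For scale, the chromosomes were tiled with windows as long as each body. Of 25063 windows of 120 kb, 1.42% had as much H3K27ac as HOXA and 2.55% as much as HOXC, and 3.34% and 11.8% had at least as many CTCF peaks. Of 14317 windows of 210 kb, 8.88% had as much H3K27ac as HOXB and 2.26% as many CTCF peaks. Of 27345 windows of 110 kb, 20.3% had as much H3K27ac as HOXD, while 1.40% had as many CTCF peaks. HOXA was therefore in the upper few percent of the genome for both marks, HOXC for H3K27ac, and HOXB and HOXD for CTCF. The windows include gaps of the assembly, which lowers these percentages.

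CTCF peaks of the bodies were also strong for their list. The median fold was 16.0 in the bodies and 11.7 in the flanks, against 9.59 in the list. Median fragments were closer, at 77 in the bodies and 71 in the flanks. Median local background was 1.37 times the lowest in the bodies and 1.83 times in the flanks. Its part in the lower fold of the flanks, and in the shares below, was not tested. Of the 54 CTCF members 12 (22.2%, Wilson 95% interval 13.2 to 34.9) had a fold of at least 19.8, the bound of the top 10% of the list, where the whole list had 9.98%. In the bodies the count was 9 of 27 (33.3%, 18.6 to 52.2) and in the flanks 3 of 27. HOXA gave 5 of the 9.

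H3K27ac peaks of the bodies were many rather than strong. Of the 71 H3K27ac members 7 (9.86%) reached the top 10% by fold, at 16.8, where the whole list had 9.99%, and in the bodies 4 of 45 (8.89%) did. These shares are at the level of the list. The median fold was 5.05 in the bodies and 4.55 in the list, and the median width was 547 bases against 567. Peaks of 1 kb or more made up 19 of 71 members (26.8%) and 15 of 45 in the bodies (33.3%, 21.4 to 47.9), against 25.6% of the list. Within the bodies 7 of these wide peaks were in HOXA, 4 in HOXC, 3 in HOXB and 1 in HOXD.

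**Figure D2:**
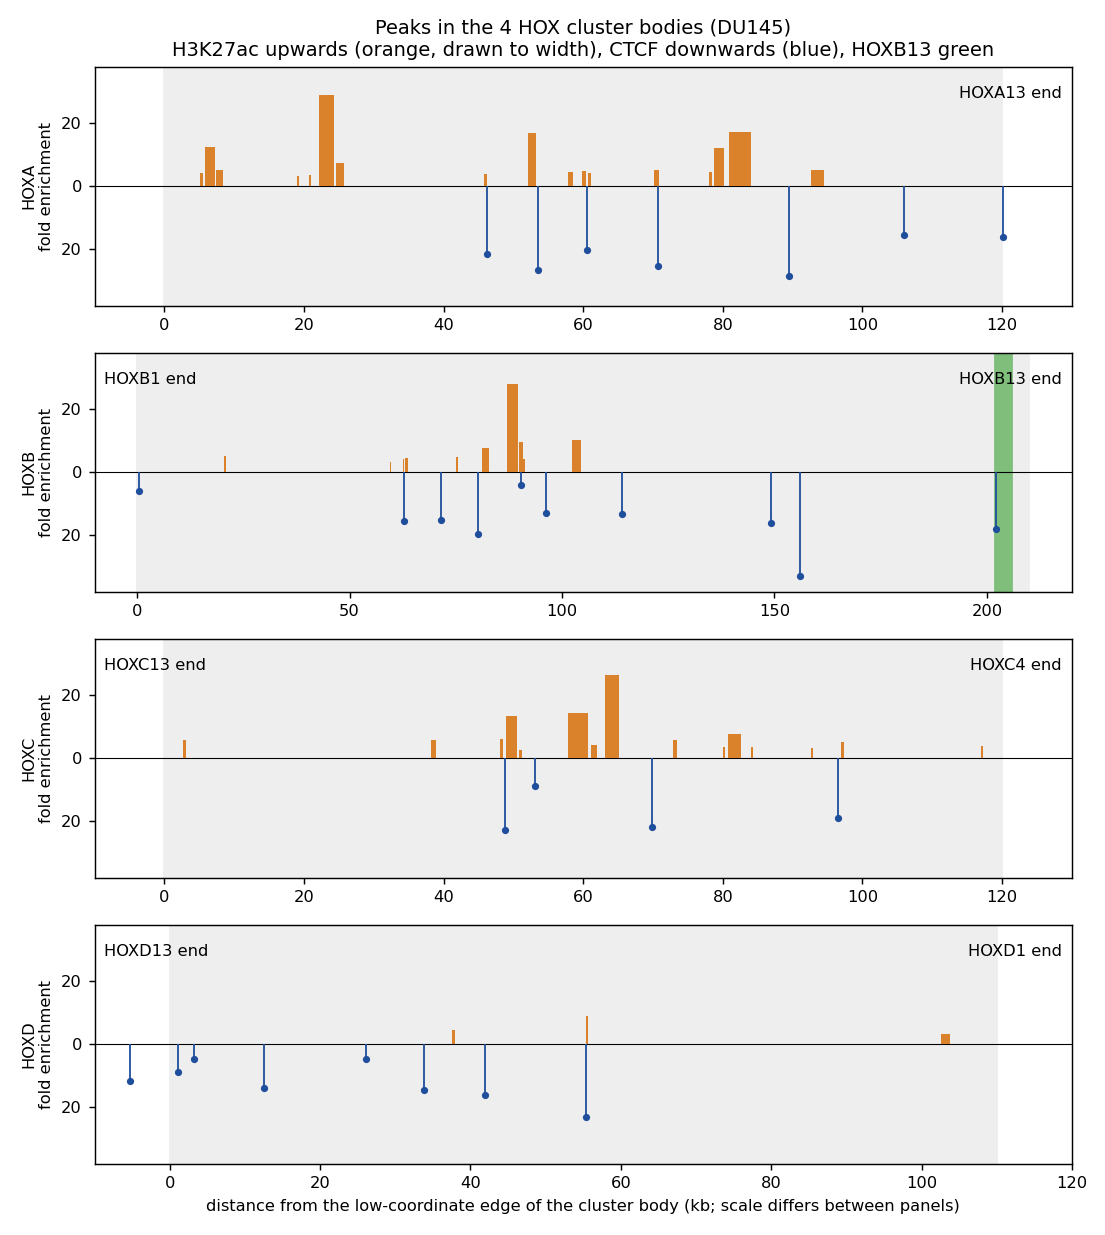
Fold enrichment of each peak in the 4 bodies against distance from the low-coordinate edge in kb, with H3K27ac upwards drawn to width, CTCF downwards, the body in grey and HOXB13 in green. End labels follow the RefSeq gene order. H3K27ac spreads over most of HOXA, lies mostly just below the middle of HOXB and in the middle of HOXC, and is sparse in HOXD, where CTCF peaks crowd the HOXD13 end.

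HOXA had its 2 longest acetylated blocks on either side of its middle, with a shorter strong peak, weaker peaks and CTCF summits in between. The strongest H3K27ac peak, chr7:27152209-27154358, had a width of 2150 bases, a fold of 29.0 and 120 fragments (exact Poisson 95% interval 99.5 to 143). It lay in the low part of the body, in a run of 4 peaks over 6.76 kb, where a run joins peaks no more than 3 kb apart. The widest peak, chr7:27210827-27214104, was 3278 bases long with a fold of 17.3 and 97 fragments, and lay toward the HOXA13 end in a run of 3 peaks over 6.04 kb. The third by fold, chr7:27182111-27183297, had a fold of 16.8 and 69 fragments. Further peaks of fold above 10 stood at chr7:27135801-27137298 (12.4), near the low edge, and chr7:27208707-27210132 (11.97). In all there were 8 runs, and 9 of 12 bins of 10 kb held some H3K27ac, with up to 36.0% of a bin.

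The HOXA CTCF peaks formed a spaced row in the part of the body toward HOXA13. In order their summits were at 27176212, 27183546, 27190591, 27200751, 27219549 and 27235980 on chromosome 7, with folds of 21.5, 26.7, 20.2, 25.3, 28.7 and 15.6. The fragments at these summits were 94, 92, 96, 108, 113 and 87. The first 5 were in the top 10% of the list, and the strongest, chr7:27219351-27219878, exceeded 98.5% of it. The median spacing within the body was 10.2 kb (7.05 to 18.8), against 35.1 kb between CTCF peaks of the list. The body figure leaves out spacings that cross its edges, while the list figure includes all. No CTCF peak lay in the first 46.2 kb of the body, where 8 of the 17 H3K27ac peaks and the strongest of them stood.

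The end of HOXA beyond its last acetylated peak was bare of H3K27ac but not of CTCF. The stretch from 27224537 to 27275136 had no H3K27ac peak over 50.6 kb, of which 25.5 kb were in the body, and it held 2 CTCF peaks. Of 49758 gaps between H3K27ac peaks in the list, 17.6% were as long. Such shares, here and below, count gaps and not bases, and longer gaps hold a larger share of the bases than of the count. A shorter gap of 20.1 kb, from 27155689 to 27175739, separated the strongest acetylated run from the first CTCF peak and held no CTCF.

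HOXB was acetylated mainly just below the middle of its body, with little toward HOXB1 and none toward HOXB13. All 10 H3K27ac peaks lay in the low 105 kb, where they covered 9.20% of bases, and the high 105 kb had 0. Of the 10, 9 had their summits between 59.7 and 103 kb from the low edge, and the other was weak (chr17:46620453-46620897, fold 5.29). A stretch of 59.8 kb without H3K27ac, 46560673 to 46620452, ran over the low edge. The strongest and widest, chr17:46687132-46689738, had 2607 bases, a fold of 27.9 and 127 fragments (106 to 151). Next by fold came chr17:46702430-46704591 (2162 bases, fold 10.4, 74 fragments) and chr17:46689905-46690829 (925 bases, fold 9.63, 41 fragments). There were 6 runs, and 7 of 21 bins held H3K27ac. The run of the strongest peak, 46687132 to 46691244, had 3 peaks over 4.11 kb and 93.5% of its bases in peaks. A slightly longer run, 46659455 to 46663643, had 3 weak peaks over 4.19 kb and 27.1% of its bases in peaks.

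HOXB CTCF peaks stood both below and above the last H3K27ac peak of the body, and the side above it is called bare. Below its end their summits were at 46600488, 46662897, 46671410, 46680119, 46690444 and 46696128 on chromosome 17, with folds of 5.95, 15.5, 15.3, 19.6, 4.12 and 13.1. Of these, 46600488 lay in the stretch without H3K27ac over the low edge, with none within 10 kb. On the bare side the summits were at 46714047, 46749150, 46755954 and 46802063, with folds of 13.2, 16.2, 32.9 and 18.1. The strongest, chr17:46755648-46756114, exceeded 99.5% of the list with 124 fragments (103 to 148) and stood far from any H3K27ac. The weakest, at 46690444, was the one whose summit lay inside an H3K27ac peak. Fragments ranged from 25 at 46600488 to 124.

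The bare side of HOXB ran well past the cluster. From 46704592 to 46908289 there was no H3K27ac peak over 204 kb, 105 kb of it in the body, and 5.20% of the gaps in the list were as long. This stretch held 7 CTCF summits, 4 of them in the body, or 34.4 per Mb. HOXB13 lay within it. No H3K27ac peak shared a base with HOXB13, and the nearest ended 97.4 kb below it and began 102 kb above it. A CTCF peak, chr17:46801857-46802257, lay at the low end of the gene, with a fold of 18.1 and 86 fragments (68.8 to 106). The span of the gene is rounded to 1 kb, so whether the summit is inside the gene cannot be said. The next CTCF summits were 46.1 kb below and 66.5 kb above. A second bare stretch, 46620898 to 46659454, spanned 38.6 kb without CTCF.

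HOXC was acetylated in the middle of its body. The strongest peak, chr12:54393058-54395134, had 2077 bases, a fold of 26.3 and 109 fragments (89.5 to 131). The widest, chr12:54387870-54390675, had 2806 bases, a fold of 14.5 and 81 fragments. The third, chr12:54378951-54380510, had 1560 bases, a fold of 13.5 and 65 fragments. The first 2 belonged to 1 run of 3 peaks over 7.27 kb, 79.4% of it in peaks, the longest of the 4 clusters. Toward HOXC4 the peaks above the third CTCF summit had folds of 3.11 to 7.84. Toward HOXC13 the body held 2 peaks below 54378012, of fold 5.75 and 5.74. HOXC had 9 runs, and 9 of 12 bins held H3K27ac.

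The 4 HOXC CTCF peaks all lay in the middle and upper part of the body. The first, chr12:54378670-54378912, had a fold of 22.9 and 79 fragments, and the third, chr12:54399757-54400064, had a fold of 21.8 and 75 fragments. Both were in the top 10% of the list, and they stood on either side of the 3 strongest acetylated peaks. Between them chr12:54382963-54383230 had a fold of 8.77 and 47 fragments, and above them chr12:54426345-54426707 had a fold of 18.9 and 77 fragments. The longest stretch without H3K27ac, 54333100 to 54368149, spanned 35.1 kb on the HOXC13 side and held no CTCF. Gaps as long were 22.2% of the list's.

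HOXD had little acetylation, and its 3 H3K27ac peaks were spread out. They were chr2:176987486-176987934 (449 bases, fold 4.50, 21 fragments), chr2:177005319-177005699 (381 bases, fold 9.10, 37 fragments, 26.1 to 51.0) and chr2:177052588-177053770 (1183 bases, fold 3.18, 17 fragments, 9.90 to 27.2). The best bin had 11.8% of its bases in peaks and 8 of 11 bins had 0. The middle peak coincided with the strongest CTCF peak of the cluster, and the last was weak, with a fold above that of 11.7% of the list.

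HOXD CTCF peaks lay toward HOXD13 and ended in the middle of the body. Their summits spanned 176951142 to 177005407 on chromosome 2 at a median spacing of 8.70 kb (2.08 to 13.6), the closest of the 4 clusters. This rank counts weak peaks. Only 4 of the 7 were above the list's median fold, and the spacing was not recomputed for those. In order the peaks were chr2:176951017-176951257 (fold 8.90), 176953083-176953367 (4.83), 176962301-176962616 (14.1), 176976016-176976224 (4.58), 176983671-176983959 (14.6), 176991801-176992078 (16.0) and 177005180-177005825 (23.2). The last was the strongest, above 94.8% of the list with 80 fragments (63.4 to 99.6). The other 6 had 24 to 68 fragments. Beyond it the body held no CTCF peak, and the longest stretch of the body without H3K27ac, 177005700 to 177052587 or 46.9 kb, began there. On the HOXD13 side a gap in H3K27ac of 119.99 kb, from 176867496 to 176987485, held 6 CTCF peaks.

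Counted by 1 shared base, CTCF and H3K27ac overlapped at the clusters about as often as elsewhere in the lists. Of the CTCF members 9 of 54 (16.7%, 9.02 to 28.7) shared at least 1 base with an H3K27ac peak, against 14.2% of the list. The share of members was 7.41% with the summit inside the peak and 6.25% among peaks with −log10 q of at least 10. The list was not recomputed under these settings. Of the H3K27ac members 9 of 71 (12.7%, 6.81 to 22.4) shared a base with CTCF, against 10.1% of the list. In the bodies the CTCF count was 6 of 27 (22.2%), with 3 of 6 in HOXA and 0 of 4 in HOXC.

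More CTCF peaks had H3K27ac close by in the bodies than in the flanks. H3K27ac itself was denser in the bodies, at 80.4 peaks per Mb against 16.3 in the flanks and 16.5 over the chromosomes. The shares in this paragraph are not adjusted for that density, and its part in them was not tested. H3K27ac lay within 1 kb of 13 of 54 CTCF members (24.1%, 14.6 to 36.9), against 19.9% of the list. In the bodies it did for 10 of 27 (37.0%, 21.5 to 55.8) and in the flanks for 3 of 27. Of the 10, 6 were those that shared a base. Neighbouring peaks of 1 library are not independent, so these intervals are no test against the list. A CTCF summit in a short break of acetylation, with H3K27ac within 300 bases on both sides but not on the summit, was found for 3 of 27 in the bodies and 0 of 27 in the flanks, where 1.55% of the summits of the list had it. This distance was chosen after the values were seen. The 3 were 1 each in HOXA (27190591, H3K27ac 233 bases below and 160 above), HOXB (46662897, 112 and 220) and HOXC (54378790, 232 and 161). At the other extreme, 9 of 27 body summits and 19 of 27 flank summits had no H3K27ac within 10 kb on either side, against 63.0% of the list. The 9 were 4 in HOXB, 4 in HOXD and 1 in HOXA, and HOXC had 0 of 4.

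Acetylation differed widely between the sides of some CTCF summits in HOXB and HOXC. A step was counted where the percent of bases in H3K27ac peaks differed by at least 20 percentage points between the 10 kb below and the 10 kb above a summit. It was met by 5 of 54 members (9.26%, 4.02 to 19.9), 3 of them in HOXB and 2 in HOXC, where 7.52% of the summits of the list met it, a share near that of the members. The share of members was 5.56% with windows of 20 kb and 4.17% among peaks with −log10 q of at least 10, and the list was not recomputed under these settings. In HOXB the summit at 46680119 had 3.91% below and 45.1% above, and the next, at 46690444, had 48.3% below and 6.98% above. The strongest HOXB run lay mostly between them, and the 10.3 kb between the summits had 46.8% of bases in peaks, against 4.49% and 12.3% in the neighbouring intervals. Neither summit marked an edge of that run. The lower one was 7.01 kb below it, and the upper one, with 26 fragments, lay inside it. A separate H3K27ac peak, chr17:46681128-46682811 (fold 7.57), began 1.01 kb above the lower summit.

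The HOXC steps stood on either side of the strongest run, not at its edges. The summit at 54378790 had 6.51% below and 28.7% above, and that at 54399895 had 37.5% below and 5.14% above. The first lay inside a smaller run of 3 peaks, 54378012 to 54381222, and the second was 4.76 kb above the end of the strongest run. Between CTCF summits, 45.1% of the 4.33 kb above 54378790 and 34.4% of the next 16.8 kb were in H3K27ac peaks. Above 54399895 the share was 12.1% over 26.6 kb. The CTCF-free 193 kb below 54378790 held 5 H3K27ac peaks with a fold of at most 6.72.

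HOXA and HOXD had no step of this size. The largest in HOXA, at 27219549, had 38.6% below and 18.7% above, a fall of 19.9 percentage points that just missed the bound, and the next, at 27190591, fell by 16.7 points to 8.26%. Acetylation in HOXA was spread over all intervals between CTCF summits up to 27235980, with 16.2%, 18.6%, 9.70%, 27.2% and 11.4% of bases in order, and was 0 in the interval that ends at the high edge. In HOXD the largest difference was 4.49 percentage points.

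**Figure D3:**
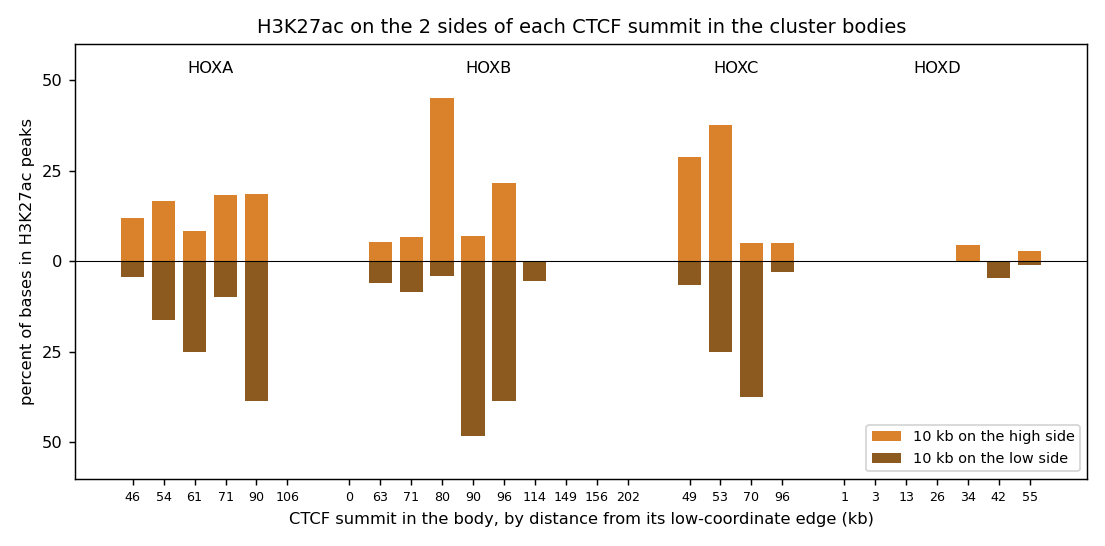
For each CTCF summit in a body, in order along the chromosome and labelled by its distance from the low edge in kb, bars give the percent of bases in H3K27ac peaks in the 10 kb above it (upwards) and below it (downwards). The pair at 80 and 90 kb in HOXB and the pair at 49 and 70 kb in HOXC have their higher bars facing each other, while most HOXD summits have 0 on both sides.

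CTCF stood within 20 kb of 4 of the 8 edges of the bodies, taking the nearer of the nearest summits inside and outside. The bound of 20 kb was not among the planned settings. The share of all positions with CTCF this near was not computed, so the count is a description only. Spacings as long as those across these edges were common. Of spacings between neighbouring CTCF summits in the list, 71.5% were as long as that across the high edge of HOXA. For HOXB the shares were 53.8% at the low and 32.4% at the high edge, and for the low edge of HOXD 84.1%. At the high edge of HOXA, chr7:27249972-27250379 (fold 16.1, 55 fragments, 41.4 to 71.6) had its summit 0.119 kb outside, and the next one inside was 14.0 kb away. At the low edge of HOXB a weak peak, chr17:46600429-46600623 (fold 5.95, 25 fragments, 16.2 to 36.9), was 0.488 kb inside, and the next outside, at 46570028 (fold 12.7), was 30.0 kb away. At the low edge of HOXD peaks stood 1.14 kb inside (fold 8.90) and 5.26 kb outside (chr2:176944584-176945245, fold 11.7, 63 fragments). At the high edge of HOXB the peak at HOXB13 was 7.94 kb inside and the next outside, at 46868582 (fold 10.8, 82 fragments), was 58.6 kb away. The edges are round coordinates, so distances under a few kb say only that CTCF was near.

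The other 4 edges had no CTCF summit within 20 kb. At the low edge of HOXA the nearest summits were 46.2 kb inside and 236 kb outside (26893590, beyond the flank), and the 282.6 kb between them held 13 H3K27ac peaks. Of 35666 spacings between CTCF summits in the list, 5.01% were as long. This share and those below count spacings, not bases. Longer spacings hold a larger share of the bases than of the count, and the share of bases was not computed. At the high edge of HOXD the nearest were 54.6 kb inside and 259.8 kb outside (177319835, fold 17.8), a spacing of 314 kb with 3 H3K27ac peaks, and 4.17% of spacings were as long. HOXC had none within 20 kb of either edge. At its low edge the nearest summits were 48.8 kb inside and 144 kb outside (54185682, fold 6.08, 79 fragments). At its high edge they were 23.5 kb inside, little over the bound, and 113 kb outside (54563081, fold 6.33, 21 fragments). Spacings as long as those across the HOXC edges made up 9.28% of the list at the low and 14.8% at the high edge. The edges without CTCF within 20 kb were thus the low edge of HOXA, the HOXD1 end of HOXD and both ends of HOXC. CTCF was near the HOXA13 end, the HOXD13 end and both ends of HOXB. At the low end of HOXB this rested on the weak peak alone, whose −log10 q of 9.92 is below the alternative bound of 10. Without that peak the nearest CTCF summit was 30.0 kb outside.

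**Figure D4:**
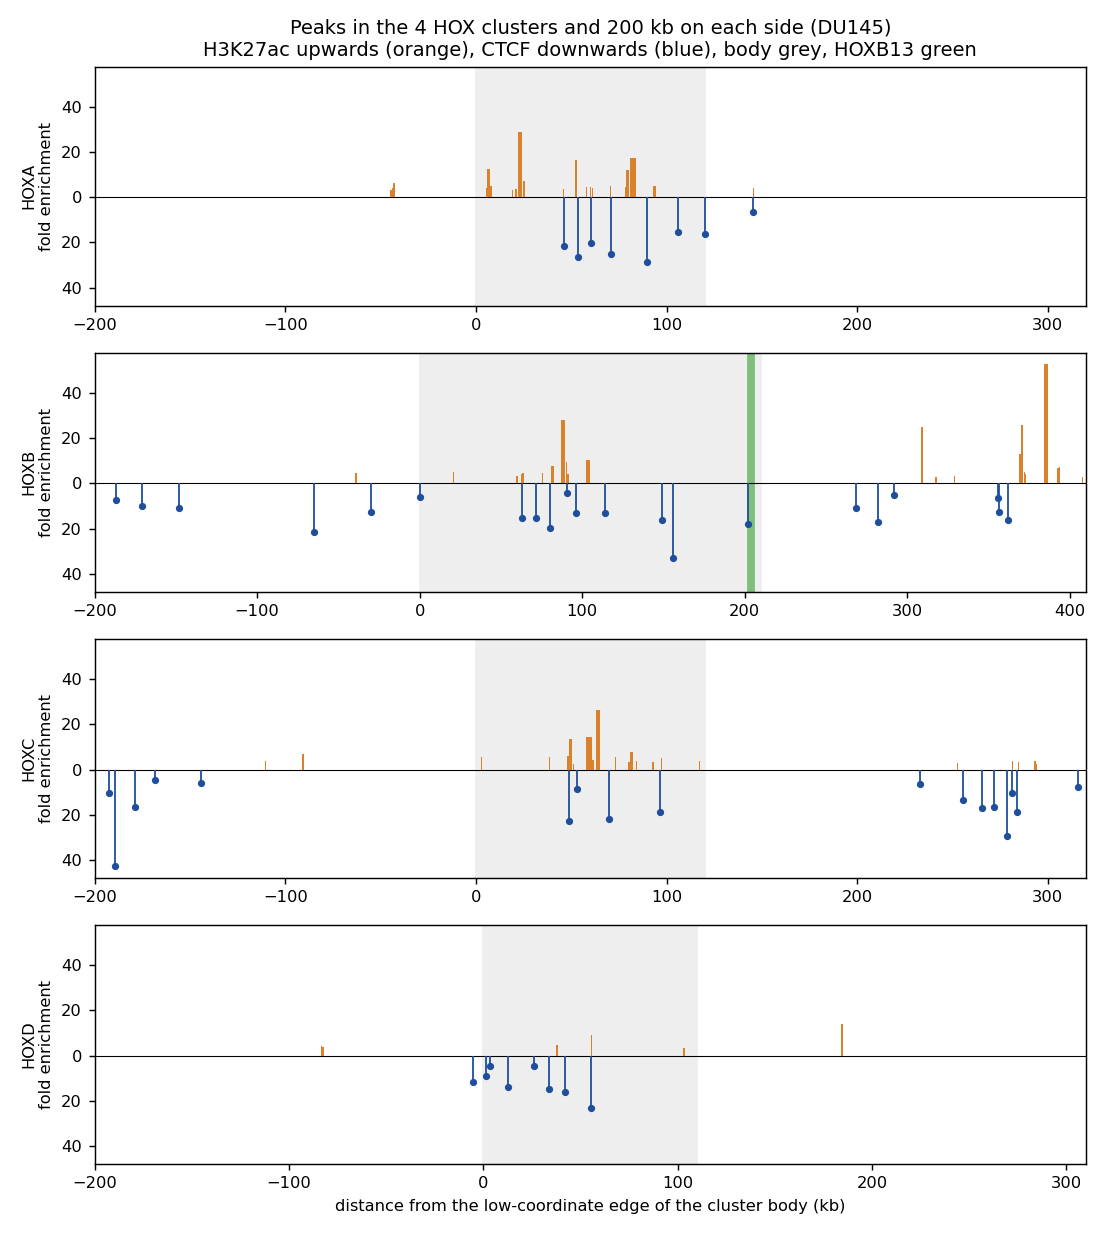
Fold enrichment of each member peak against distance from the low edge of the body in kb, with H3K27ac upwards, CTCF downwards, bodies in grey and HOXB13 in green, over each body and 200 kb on both sides. The low flank of HOXA and the high flank of HOXD show no CTCF, the flanks of HOXC show CTCF only far from the body, and the high flank of HOXB holds the highest H3K27ac peak, at fold 53.1.

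The flanks were mostly poor in H3K27ac, and HOXB was the exception. Its high flank, the side of HOXB13 followed in RefSeq by TTLL6, CALCOCO2, ATP5MC1, UBE2Z and SNF8, had 11 H3K27ac peaks over 4.87% of bases. Among them chr17:46984373-46986955 (2583 bases, fold 53.1, 253 fragments, 223 to 286) was the strongest H3K27ac member, above 99.9% of the list. Peaks of fold 26.0 (chr17:46970104-46971130, 124 fragments), 24.95 (chr17:46908290-46909486, 121 fragments) and 13.2 (chr17:46968991-46969728, 84 fragments) stood in the same flank. The third HOXB step was here, at the CTCF summit 46962222, with 0% below and 22.1% above. The strongest CTCF peak of this flank was chr17:46882166-46882681 (fold 17.2, 93 fragments). The low flank had 1 H3K27ac peak, chr17:46560363-46560672 (fold 4.73), and its strongest CTCF peak was chr17:46534542-46534980 (fold 21.3, 116 fragments).

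The HOXC flanks were rich in CTCF at their far ends. The low flank held the strongest CTCF member, chr12:54140417-54141003, with a fold of 42.7 and 148 fragments (125 to 174), and the high flank held chr12:54608507-54609249 (fold 29.4, 160 fragments). Their strongest H3K27ac peaks were weak: chr12:54238988-54239472 had a fold of 6.72 and chr12:54622831-54623188 a fold of 3.83. The flanks of HOXA and HOXD were sparse in both marks. In HOXA the low flank had 3 H3K27ac peaks, the strongest chr7:27086688-27087499 (fold 6.49), and 0 CTCF peaks. Its high flank had 2 CTCF peaks, the second of which (chr7:27275071-27275294, fold 6.63) overlapped the only H3K27ac peak there (chr7:27275137-27275480, fold 4.31). In HOXD the low flank had the CTCF peak next to the edge and 2 H3K27ac peaks, the stronger chr2:176866423-176866914 (fold 4.38). Its high flank had 0 CTCF peaks and 1 H3K27ac peak, chr2:177134073-177134899, with a fold of 14.0 and 60 fragments, higher than any in the HOXD body.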

How the data were processed

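Chromatin of DU145 was immunoprecipitated for CTCF and for H3K27ac, with 1 library per mark. Bowtie, MACS2 and hg19 are named in the submitters' processing notes, but the sources used here give no versions or settings. Which input library served as background is not given either, and input signal was not analysed here. The columns are those of a narrow peak file. The authors deposited for each peak its start, end and summit offset, a score and a fold enrichment, which is a linear ratio to local background. They also deposited a p-value and a q-value as −log10. The score follows 10 times the −log10 q. The smallest deposited −log10 q was 1.31 in both lists.

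Fragments at a summit and local background were solved from the deposited fold and −log10 p, with 1 added to both sides of the ratio, as a whole number within 0.002 on −log10 p. CTCF fragment numbers were scaled by 0.911 and H3K27ac by 1. All members were solved, and the solver was tested on simulated data. Python 3.11.15, numpy 2.4.6, scipy 1.17.1 and pandas 2.3.3 were used. Overlap required 1 shared base. Densities and windows refer to the span from the first to the last peak of the 24 assembled chromosomes, 3009 Mb in all.

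In each body the text names every CTCF peak, the 3 H3K27ac peaks of highest fold, the widest and the longest stretch without one. It also names the CTCF peaks nearest each edge, the strongest peaks of each flank and the largest steps. Members and lists were chosen with earlier results of these data known. Sequences come from RefSeq tables of GRCh38.p14, and coordinates were not converted between builds. Alternatives were a stricter q-value, peaks above each list's median fold, membership by 1 shared base, other joining distances, step windows and flanks, and the summit in place of 1 base for overlap.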

Additional observations from a re-analysis of the deposited data

How the results depend on the processing

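Of 58 alternative values for 22 results, 42 stayed within 1.5 times the reported count or within the interval of the reported share, and 16 moved. With peaks of −log10 q of at least 10, H3K27ac peaks per body fell from 17 to 9 in HOXA, 10 to 5 in HOXB, 15 to 8 in HOXC and 3 to 1 in HOXD, and runs in HOXD from 3 to 1. With peaks above the list's median fold, H3K27ac peaks were 9 in HOXC and 1 in HOXD, and CTCF peaks in HOXD were 4 in place of 7. Both settings brought the H3K27ac share of HOXD bases from 1.83% to 0.346%. The order of the 4 bodies by H3K27ac peaks was the same with the q-value bound. The first place of HOXD in CTCF peaks for its length was lost above the median fold. The share of CTCF members with a step went from 9.26% to 5.56% with 20 kb windows and to 4.17% with the q-value bound. The longer joining distance gave 2 runs in HOXA, 2 in HOXB and 3 in HOXC. Flanks of 100 kb left 4 of 17 CTCF peaks in HOXC. The share of CTCF members overlapping H3K27ac was 7.41% with the summit inside the peak and 6.25% with the q-value bound. No paired analysis was possible because each mark has 1 library. Weak peaks have wide intervals, such as the last in HOXD with 17 fragments (9.90 to 27.2).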
